A study of Homo sapiens with 12 samples.

Results

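The genes described here encode 10 chromatin remodelling ATPases outside the SWI/SNF complex, measured in Z-138 cells with and without knockdown of SMARCA4. They were chosen by name from the ISWI, CHD and INO80 families and comprise SMARCA5, SMARCA1, CHD1, CHD2, CHD3, CHD4, CHD7, CHD8, INO80 and SMARCAD1. All 10 had a row among the 13820 genes of the count table, and 9 passed the filter on low counts and were tested. SMARCA1 did not pass. Z-138 is an established mantle cell lymphoma line, and the measurement was RNA sequencing of 3' ends in 12 libraries. The SMARCA4 shRNA groups were SMARCA4kd_DMSO (SMARCA4 shRNA, DMSO vehicle) and SMARCA4kd_IbrVen (SMARCA4 shRNA, 3 µM ibrutinib with 3 µM venetoclax). They were set against control_DMSO and control_IbrVen, with a control shRNA and the same treatments, and each of the 4 groups had 3 replicates. Doxycycline was present in every culture, and the treatment time is not given in the labels. All values come from 1 cell line, and the knockdown goes with its shRNA in every library, so effects of SMARCA4 loss and other effects of the construct cannot be told apart. In what follows, "drug" means ibrutinib, an inhibitor of the kinase BTK, together with venetoclax, an inhibitor of BCL2.

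Remodelling ATPases use ATP to slide, space, evict or exchange nucleosomes, and each works inside a complex whose other subunits set where it acts. SMARCA4 and its paralog SMARCA2 are the alternative motors of SWI/SNF. ISWI enzymes (SMARCA5, SMARCA1) space nucleosomes into regular arrays, CHD enzymes carry a pair of chromodomains, and INO80 remodels nucleosomes at promoters and replication forks. CHD4 and CHD3 are the alternative ATPases of NuRD, a complex that joins remodelling to histone deacetylation and takes part in B cell development. The comparisons ask whether loss of SMARCA4 is accompanied by a change in the RNA of these other remodellers.

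Total counts ranged from 7279503 to 22528537 per library. The deepest, SMARCA4kd_DMSO replicate 3, stood apart from the other 11, whose median was 8632355. SMARCA4 (ENSG00000127616) had 177, 174 and 159 CPM (each count over its library's total, corrected by TMM factors and put on a shared scale) in SMARCA4kd_DMSO libraries, against 577, 599 and 555 CPM in control_DMSO libraries. With drug its level was 167, 174 and 184 CPM in knockdown libraries and 588, 599.5 and 642 CPM in control libraries, so knockdown libraries retained 29.4% of the control level in DMSO and 28.7% under drug. SMARCA2, the other SWI/SNF ATPase, also fell, to 59.7 ± 2.62 CPM in SMARCA4kd_DMSO against 84.5 ± 0.59 CPM in control_DMSO libraries (SD, n = 3). Its log2 fold change (with the standard error, SE, and the adjusted p of edgeR's quasi-likelihood test, threshold 0.05) was -0.51 in DMSO (SE 0.07, adjusted p = 1.77e-06) and -0.44 under drug (SE 0.08, adjusted p = 2.54e-05). Of 8 B cell and mantle cell lymphoma markers, 7 were analysed and all 7 had at least 51 counts in every library, with the cyclin D1 gene CCND1 at 3290 to 4889 CPM. With the knockdown, 6 of these 7 markers fell in DMSO and 5 under drug, where 16.2% and 16.3% of all genes tested fell. SOX11 rose in both treatments, where 15.1% and 14.8% of all genes tested rose. Their summed level was 4292 to 4515 CPM in SMARCA4kd_DMSO and 4925 to 5761 CPM in control_DMSO libraries, and 4193 to 4896 CPM and 5273 to 5630 CPM in knockdown and control libraries under drug. Of markers of other cell types, CD3G (1 of 7 for T and NK cells) and COL1A1 (1 of 7 for fibroblasts and epithelium) were analysed, and both fell in both knockdown comparisons. In DMSO CD3G had 1.31 to 2.06 CPM with the knockdown, against 15.4 to 16.2 CPM in controls, and under drug 1.43 to 2.30 CPM against 14.1 to 18.2 CPM. COL1A1 had 14.8 to 15.1 CPM in DMSO with the knockdown, against 19.6 to 23.7 CPM in controls, and under drug 14.2 to 15.1 CPM against 25.2 to 26.0 CPM. None of the 5 monocyte and macrophage markers was analysed. Ribosomal 18S and 28S rows took 10.5% and 8.36% of counts on average in SMARCA4kd_DMSO and SMARCA4kd_IbrVen libraries, against 9.15% in control_DMSO and 10.6% in control_IbrVen libraries. The part of these markers and of the ribosomal share in the results on the ATPases was not tested.

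Promoters are shown for the member whose RNA was near absent without the knockdown, SMARCA1, and for the paralogs CHD4 and CHD3, which moved in opposite directions in DMSO. The RefSeq table on GRCh38.p14 held a promoter for 9 of the 10 genes and none for CHD7, so CHD7 could not be shown. Each window spans 300 bases, from 250 before to 50 after the annotated start. Capitals mark CG dinucleotides, and each sequence is written 5′ to 3′ on the gene's own strand. The SMARCA1 window is chrX:129523441-129523740 on the minus strand, that of CHD4 is chr12:6606402-6606701 on the minus strand, and that of CHD3 is chr17:7888539-7888838 on the plus strand.
SMARCA1: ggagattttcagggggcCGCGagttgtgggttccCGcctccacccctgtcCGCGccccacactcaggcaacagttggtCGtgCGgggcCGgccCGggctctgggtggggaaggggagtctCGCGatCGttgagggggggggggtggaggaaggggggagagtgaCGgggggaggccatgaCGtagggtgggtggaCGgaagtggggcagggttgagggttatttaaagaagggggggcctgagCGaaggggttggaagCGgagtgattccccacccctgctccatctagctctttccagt
CHD4: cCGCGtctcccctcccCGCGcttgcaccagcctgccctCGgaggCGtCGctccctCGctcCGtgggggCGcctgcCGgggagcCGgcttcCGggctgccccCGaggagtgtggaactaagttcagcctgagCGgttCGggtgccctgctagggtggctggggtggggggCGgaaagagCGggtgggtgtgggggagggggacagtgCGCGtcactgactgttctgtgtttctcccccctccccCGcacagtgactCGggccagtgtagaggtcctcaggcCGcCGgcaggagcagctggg
CHD3: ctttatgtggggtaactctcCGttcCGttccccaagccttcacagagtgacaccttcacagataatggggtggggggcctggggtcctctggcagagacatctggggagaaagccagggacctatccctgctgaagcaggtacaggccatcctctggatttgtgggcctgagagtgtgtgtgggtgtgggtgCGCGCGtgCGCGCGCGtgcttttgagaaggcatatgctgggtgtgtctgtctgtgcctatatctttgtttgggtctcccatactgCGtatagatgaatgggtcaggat
SMARCA1 had 17 CG dinucleotides, CHD4 had 24 and CHD3 had 10, against a median of 14 over 35116 promoters of the same length. The GC box GGGCGG, searched on both strands, occurred once in the CHD4 window and 0 times in the SMARCA1 and CHD3 windows, and 45.0% of all promoters held it. Neither the TATA box TATAAA (11.5% of all promoters) nor the E-box CACGTG (7.26%) was found in these 3 windows on either strand. Sequencing of 3' ends does not show which start site was used, so these matches are a description of the windows alone.

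With SMARCA4 knocked down, CHD7 RNA was 1.98-fold and 2.01-fold higher and CHD4 RNA at 75.3% and 72.5% of its control level in DMSO and under drug, while the other tested ATPases differed by at most 0.30 on the log2 scale. In DMSO 2 of the 9 genes tested rose (CHD7 and CHD3), 1 fell (CHD4) and 6 did not pass the threshold. That is 33.3% of the genes tested, against 31.3% of all 12602 genes in this comparison (15.1% higher and 16.2% lower). Under drug 2 rose (CHD7 and CHD2), 2 fell (CHD4 and INO80) and 5 did not pass, which is 44.4% against 31.1% of all genes (14.8% higher and 16.3% lower). The share of ATPases called was near that of all genes in DMSO and above it under drug, where it rests on 4 genes. Among these 4 is INO80, whose call was lost in 4 of 16 alternative fits, so the higher share is not firm. The median log2 fold change of the 9 genes was 0.06 in DMSO and 0.03 under drug, where that of all genes was 0.0038 and 0.0018. Their median absolute change was 0.16 in DMSO and 0.13 under drug, below the 0.20 and 0.21 of all genes. The sets were not matched for level. Each of the 9 genes had at least 228 counts in every library, where the filter asked for 1.15 CPM. The part of counting noise in this difference was not tested. The knockdown comparisons in DMSO and under drug share no libraries, but they share the cell line and the fit. Neither is an independent repeat of the other.

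**Figure D1:**
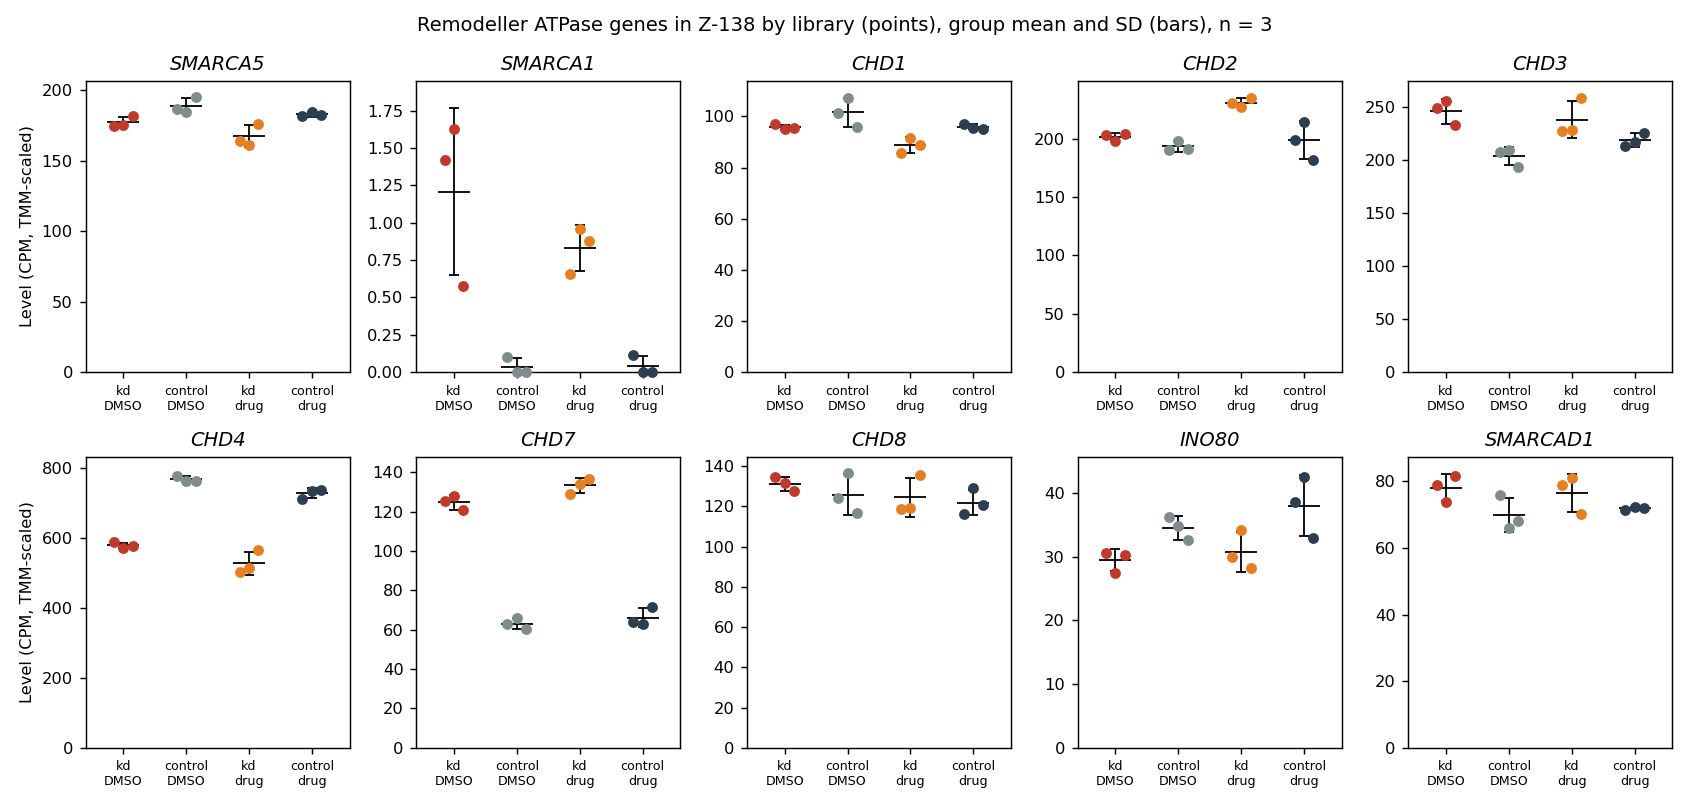
Level of each of the 10 ATPase genes in CPM (vertical axes from 0, each with its own scale) in every library, with the SMARCA4 knockdown (kd) left of its control in DMSO and under drug; points are libraries and bars the group mean with SD (n = 3). CHD7 and CHD4 show separate knockdown and control libraries in both treatments, and SMARCA1 has at most 1 count in any control library.

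Of the ISWI motors, SMARCA5 (ENSG00000153147), which drives the ACF, CHRAC, WICH and NoRC complexes, stayed close to its control level. It had 175, 176 and 182 CPM in SMARCA4kd_DMSO libraries and 187, 185 and 195 CPM in control_DMSO libraries. Under drug it had 164, 161 and 176 CPM with the knockdown, against 181, 184 and 182 CPM in controls. The knockdown libraries lay below the control libraries in both treatments without overlap, but the log2 fold changes of -0.09 (95% interval -0.20 to 0.02, adjusted p = 0.210) and -0.13 (-0.24 to -0.02, adjusted p = 0.0745) did not pass the threshold. Without SMARCA4kd_IbrVen replicate 3 the drug value passed (-0.16, adjusted p = 0.0346). Non-overlap of this kind held for 42.9% of all genes in DMSO and 41% under drug.

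SMARCA1 (ENSG00000102038), the other ISWI motor and the ATPase of the NURF complex, was near the limit of detection and was seen almost only with the knockdown. Its row held 13, 15 and 13 counts in SMARCA4kd_DMSO libraries, against 1, 0 and 0 counts in control_DMSO libraries. Under drug it held 5, 8 and 8 counts with the knockdown and 1, 0 and 0 in controls. A count of 0 in these control libraries allows a level of up to 0.358 to 0.387 CPM (3 counts per library, counting error only), while the knockdown libraries had 1.42, 1.63 and 0.576 CPM in DMSO and 0.656, 0.955 and 0.878 CPM under drug. The deepest library thus gave the lowest level among the DMSO knockdown libraries. Summed over libraries and scaled to their totals, SMARCA1 was 26.7-fold higher in DMSO (41 counts against 1, 95% exact interval 4.53 to 1081) and 20.6-fold higher under drug (21 against 1, interval 3.31 to 851), intervals that cover counting error only. Both ratios rest on 1 control count, in replicate 1 of each control group, and without that library the controls held 0 counts. The fitted log2 fold change, which then depends on the prior count of the fit, was 6.41 without control_DMSO replicate 1 and 6.06 without control_IbrVen replicate 1. SMARCA1 passed the low-count filter of those fits only through knockdown libraries, so they are no check of its change. A fit of all libraries with no filter gave 4.45 in DMSO and 3.996 under drug. These fits differ in the filter as well as the library, so the values are not compared. SMARCA1 missed the low-count filter of the main fit because 2 libraries, where 3 are needed, reached the required 1.15 CPM. In a fit with no such filter edgeR's quasi-likelihood test gave adjusted p = 0.00015 in DMSO and 0.0018 under drug. The Wald test of DESeq2, also without the filter, gave adjusted p = 0.0017 in DMSO and 0.0086 under drug.

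The CHD1 and CHD2 genes encode the chromodomain remodellers that act on transcribed genes, and CHD2 was called under drug. CHD2 (ENSG00000173575) had 231, 227 and 235 CPM in SMARCA4kd_IbrVen libraries, against 199, 214 and 182 CPM in control_IbrVen libraries. The log2 fold change was 0.22 (SE 0.06, adjusted p = 0.0032), and the groups did not overlap. In DMSO the values were 203, 198 and 204 CPM with the knockdown and 190.2, 198 and 191 CPM in controls, a log2 fold change of 0.06 (95% interval -0.05 to 0.18, adjusted p = 0.428). The difference between the knockdown effects under drug and in DMSO was 0.16 (interval -0.0069 to 0.32, adjusted p = 0.922) and did not pass, so the effects are not shown to differ. CHD1 (ENSG00000153922) had 96.9, 95.1 and 95.5 CPM in SMARCA4kd_DMSO libraries, against 101, 107 and 95.8 CPM in control_DMSO libraries, which overlapped. Under drug it had 85.6, 91.7 and 89.0 CPM with the knockdown and 97.1, 95.6 and 95.2 CPM in controls, which did not overlap. Its values were small in both treatments, with log2 fold changes of -0.08 (interval -0.20 to 0.04) in DMSO and -0.11 (-0.24 to 0.01) under drug, neither past the threshold.

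CHD4 (ENSG00000111642), the main ATPase of NuRD in most tissues, fell in both treatments. It had 588, 572 and 579 CPM in SMARCA4kd_DMSO libraries and 779.6, 764 and 764 CPM in control_DMSO libraries, with log2 fold change -0.41 (SE 0.05, adjusted p = 7.61e-08), or 75.3% of control. Under drug it had 505, 514 and 566 CPM with the knockdown, against 712, 737 and 738 CPM in controls, with log2 fold change -0.46 (SE 0.05, adjusted p = 7.72e-09), or 72.5%. No knockdown library reached any control library in either treatment. Reads of CHD4 and of the antisense gene that overlaps it cannot be told apart if counting ignored strand, and that antisense row held 132 counts in all libraries together, against 75456 for CHD4.

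CHD3 (ENSG00000170004), the alternative NuRD ATPase, moved the other way. It had 249, 256 and 233 CPM in SMARCA4kd_DMSO libraries, against 208, 209 and 194 CPM in control_DMSO libraries, and rose by 0.27 (SE 0.06, adjusted p = 0.00043). Under drug the levels were 228, 228 and 258 CPM with the knockdown and 213, 217 and 226 CPM in controls. The groups did not overlap there either, but the log2 fold change of 0.12 (95% interval 0.0043 to 0.24, adjusted p = 0.110) missed the threshold. With library totals in place of scaling factors it passed, at 0.205 (adjusted p = 0.0065). The interaction for CHD3 was -0.15 (interval -0.31 to 0.02, adjusted p = 0.922).

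CHD7 (ENSG00000171316), an enhancer-bound remodeller whose loss causes CHARGE syndrome, had the largest change of the 9 genes tested. It had 126, 128 and 121 CPM in SMARCA4kd_DMSO libraries and 62.9, 65.8 and 60.2 CPM in control_DMSO libraries, with log2 fold change 0.98 (SE 0.06, adjusted p = 6.74e-14). Under drug it had 129, 134 and 136 CPM with the knockdown, against 64.1, 62.9 and 71.4 CPM in controls, with log2 fold change 1.01 (SE 0.06, adjusted p = 5.10e-14). Every knockdown library lay far above every control library. In bulk RNA of this kind, a change in the RNA per cell and a change in the share of cells that express the gene cannot be told apart. Of all genes tested, 6.52% had a larger absolute change than CHD7 in DMSO and 6.93% under drug. CHD8 (ENSG00000100888), the family member that binds the insulator protein CTCF, had 134, 132 and 128 CPM in SMARCA4kd_DMSO libraries, against 124, 137 and 117 CPM in control_DMSO libraries. Under drug it had 119, 119 and 136 CPM with the knockdown and 116, 129 and 121 CPM in controls, so the libraries overlapped in both treatments. Its log2 fold changes were 0.06 (95% interval -0.07 to 0.19) in DMSO and 0.03 (-0.10 to 0.17) under drug, with adjusted p = 0.543 and 0.754 from the same edgeR fit. The row of the small nucleolar RNA SNORD8, which lies within CHD8, held 350 counts in all libraries together, against 14805 for CHD8.

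INO80 (ENSG00000128908), the motor of the complex of that name, was lower with the knockdown by amounts close to the threshold. In DMSO it had 30.6, 27.5 and 30.3 CPM in knockdown libraries and 36.2, 34.9 and 32.6 CPM in controls, a log2 fold change of -0.23 (95% interval -0.41 to -0.04, adjusted p = 0.0585). With drug it stood at 29.9, 34.3 and 28.2 CPM in knockdown libraries, against 38.6, 42.5 and 33.0 CPM in controls, and fell by 0.30 (SE 0.10, adjusted p = 0.0145), although the groups overlapped. That call ended without SMARCA4kd_IbrVen replicate 1 (-0.28, adjusted p = 0.0600), without SMARCA4kd_IbrVen replicate 3 (-0.24, 0.0911), without control_IbrVen replicate 2 (-0.22, 0.122) and with library totals as scaling (-0.22, 0.0778). INO80 also had the fewest counts of the 9 genes tested, 228 to 683 per library, where CHD4 had 3846 to 13064.

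SMARCAD1 (ENSG00000163104), which keeps silent chromatin intact through DNA replication and aids repair of broken ends, had log2 fold changes of 0.16 (95% interval 0.02 to 0.30, adjusted p = 0.0733) in DMSO and 0.09 (-0.06 to 0.24, adjusted p = 0.372) under drug. Its libraries overlapped in both treatments, at 73.9 to 81.8 CPM with the knockdown and 66.1 to 75.8 CPM in controls in DMSO, and at 70.1 to 80.9 CPM and 71.5 to 72.2 CPM under drug. The DMSO value passed in 3 of 16 alternatives, one of them the fit without control_DMSO replicate 1 (0.24, adjusted p = 0.0195).

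**Figure D2:**
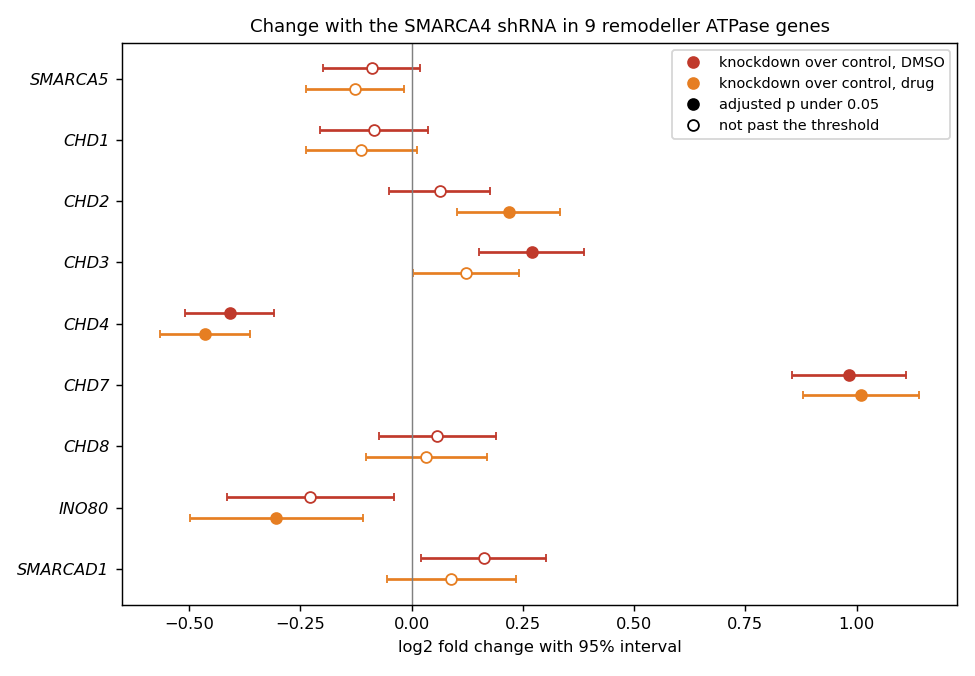
Log2 fold change (horizontal axis) of SMARCA4 knockdown over control with its 95% interval for the 9 ATPase genes tested, in DMSO (red) and under drug (orange); filled points have adjusted p under 0.05. CHD7 lies at 0.98 and 1.01, CHD4 at -0.41 and -0.46, and the other 7 genes between -0.30 and 0.27.

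Ratios of counts within a library need no scaling between libraries, so they were used to set paralogs against each other. The log2 ratio of CHD3 to CHD4 counts was -1.24, -1.16 and -1.31 in SMARCA4kd_DMSO libraries and -1.91, -1.87 and -1.98 in control_DMSO libraries. Under drug it was -1.15, -1.17 and -1.13 with the knockdown, against -1.74, -1.76 and -1.71 in controls. The ratio was therefore higher with the knockdown by 0.68 in DMSO and 0.59 under drug. The level of such a ratio also depends on how well each 3' end is captured, and the shift between groups is the measured quantity. The pairs CHD7 with CHD8 and CHD2 with CHD1 were compared in the same way.

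The CHD7 to CHD8 ratio was higher with the knockdown by 0.92 in DMSO and 0.98 under drug, at -0.07 ± 0.03 (SD, n = 3) with the knockdown and -0.998 ± 0.05 in controls in DMSO. The CHD2 to CHD1 ratio was higher by 0.14 in DMSO and 0.33 under drug. In all 6 of these comparisons the knockdown libraries lay above the control libraries without overlap, which gives p = 0.1 in a two-sided exact permutation test, the smallest value that 3 against 3 libraries allow. Over all 12 ratio comparisons, drug effects included, the adjusted value of these exact p is 0.133. No ratio of 3 against 3 libraries could reach the threshold of 0.05, so this test cannot decide. Of single genes 42.9% did not overlap in DMSO and 41% under drug. The share for other gene pairs was not computed. The ratios reuse the counts of genes described above, so they are no separate evidence. With drug over DMSO the CHD2 to CHD1 ratio differed by 0.31 in knockdown cells, without overlap, and by 0.12 in control cells, where the libraries overlapped (exact p = 0.1 and 0.2). The CHD7 to CHD8 ratio differed by 0.17 in knockdown cells, without overlap, and by 0.11 in control cells, with overlap (exact p = 0.1 and 0.3). For CHD3 to CHD4 the libraries overlapped in knockdown cells, at a difference of 0.09, and did not in control cells, at 0.18 (exact p = 0.2 and 0.1). The share of all genes without overlap was not counted for the drug comparisons. Whether the drug differences in these ratios depend on the knockdown was not tested.

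**Figure D3:**
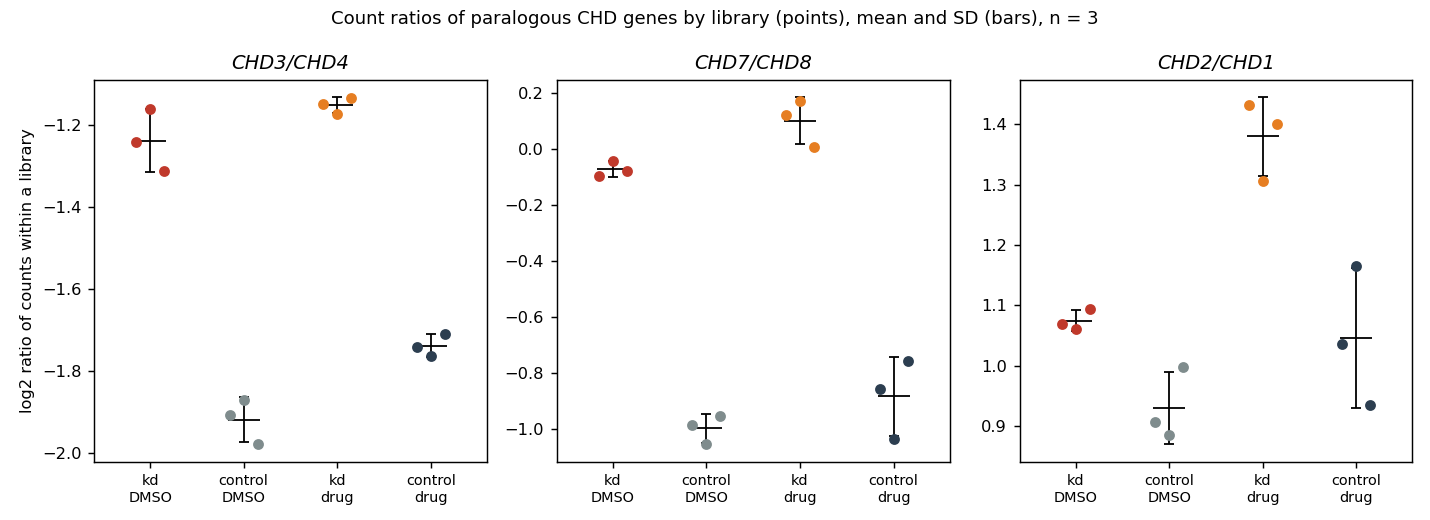
Log2 ratio of the counts of 2 paralogs within each library (vertical axes, each with its own range and not starting at 0), with knockdown (kd) left of control in DMSO and under drug; points are libraries and bars the mean with SD (n = 3). The knockdown libraries lie above their controls for each pair, by 0.59 to 0.68 for CHD3 to CHD4 and by 0.92 to 0.98 for CHD7 to CHD8.

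Among 18 further remodeller ATPases tested of 19 listed, 3 rose and 1 fell with the knockdown in DMSO, and 2 rose and 2 fell under drug (22.2% called in each, against 31.3% and 31.1% of all genes, median log2 fold changes 0.09 and 0.06). SMARCA2 fell in both, as above. CHD9, a relative of CHD7, rose by 0.38 (SE 0.08, adjusted p = 0.00025) in DMSO and 0.32 (SE 0.08, adjusted p = 0.0024) under drug, to 100.3 ± 3.85 CPM in knockdown against 77.2 ± 6.66 CPM in control libraries in DMSO (SD, n = 3). ATRX, which deposits variant histones in heterochromatin, rose by 0.23 (SE 0.06) in DMSO and 0.25 (SE 0.06) under drug.

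Of 12 ISWI partner genes tested of 13 listed, 6 rose and 2 fell in DMSO (66.7% called, against 31.3% of all genes, median log2 fold change 0.13), and 5 rose and 2 fell under drug (58.3%, against 31.1% of all genes, median 0.05). CECR2, which pairs with SMARCA1 in the CERF complex, had 9.70 ± 0.43 CPM in SMARCA4kd_DMSO libraries and 2.55 ± 0.58 CPM in control_DMSO libraries (SD, n = 3). The log2 fold change of CECR2 was 1.95 in DMSO (SE 0.19, adjusted p = 1.40e-09) and 2.02 under drug (SE 0.20, adjusted p = 2.27e-09). BAZ2B, which encodes an ISWI-binding bromodomain protein, rose by 0.36 (SE 0.07) in DMSO and 0.40 (SE 0.07) under drug. The histone chaperone gene RBBP7, shared with NuRD, fell by 0.33 (SE 0.06) and 0.30 (SE 0.06).

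All 12 NuRD partner genes were tested, and 2 rose and 4 fell in DMSO (50% called, against 31.3% of all genes, median log2 fold change -0.01), while 0 rose and 4 fell under drug (33.3%, near the 31.1% of all genes, median 0.0095). The same 4 genes fell in both treatments. GATAD2A and GATAD2B, the subunits that bridge the deacetylase and remodelling modules of NuRD, fell by 0.35 (SE 0.07) and 0.37 (SE 0.06) in DMSO and by 0.41 (SE 0.07) and 0.35 (SE 0.06) under drug. HDAC1, a deacetylase of NuRD, fell by 0.26 (SE 0.06, adjusted p = 0.00063) in DMSO and 0.36 (SE 0.06, adjusted p = 1.32e-05) under drug, and RBBP7 fell as given above. HDAC2, the other deacetylase listed, had 0.12 (adjusted p = 0.123) in DMSO and 0.14 (adjusted p = 0.0753) under drug, neither past the threshold. MTA1 and MTA3 were the members that rose in DMSO.

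Of 12 INO80 complex partners tested of 14 listed, 1 rose and 2 fell in DMSO (25.0% called, against 31.3% of all genes, median log2 fold change -0.10), and 1 rose and 6 fell under drug (58.3%, against 31.1% of all genes, median -0.19). Of all genes 16.2% fell in DMSO and 16.3% under drug. The interaction was called for 0 of these 12 genes and for 0 of the 12 NuRD partners. The knockdown effects in DMSO and under drug are therefore not shown to differ. UCHL5, the deubiquitinase subunit, fell by 0.31 (SE 0.08) in DMSO and by 0.37 (SE 0.08) under drug. MCRS1 and the AAA+ ATPase gene RUVBL1 fell under drug by 0.28 (SE 0.06, adjusted p = 0.00032) and 0.22 (SE 0.06, adjusted p = 0.0038), and had -0.14 (adjusted p = 0.0519) and -0.13 (adjusted p = 0.100) in DMSO.

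Of 15 tested genes of the SRCAP and TIP60 complexes, which place the variant histone at promoters and acetylate histones, 7 rose and 0 fell in DMSO (46.7% called, against 31.3% of all genes, median log2 fold change 0.16), and 6 rose and 0 fell under drug (40%, against 31.1% of all genes, median 0.15). Of all genes 15.1% rose in DMSO and 14.8% under drug. EPC1, a scaffold of TIP60, rose by 0.28 (SE 0.07) in DMSO and 0.40 (SE 0.07) under drug, MORF4L1 by 0.25 (SE 0.05) and 0.22 (SE 0.05), and VPS72, a histone-variant chaperone, by 0.17 (SE 0.06) and 0.23 (SE 0.06). RUVBL1, RUVBL2 and ACTL6A, which these complexes share with INO80, were counted with INO80. Under drug RUVBL1 and ACTL6A fell and RUVBL2 had -0.15 (adjusted p = 0.137), and none of the 3 was called in DMSO. None of the partner lists was tested as a list.

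**Figure D4:**
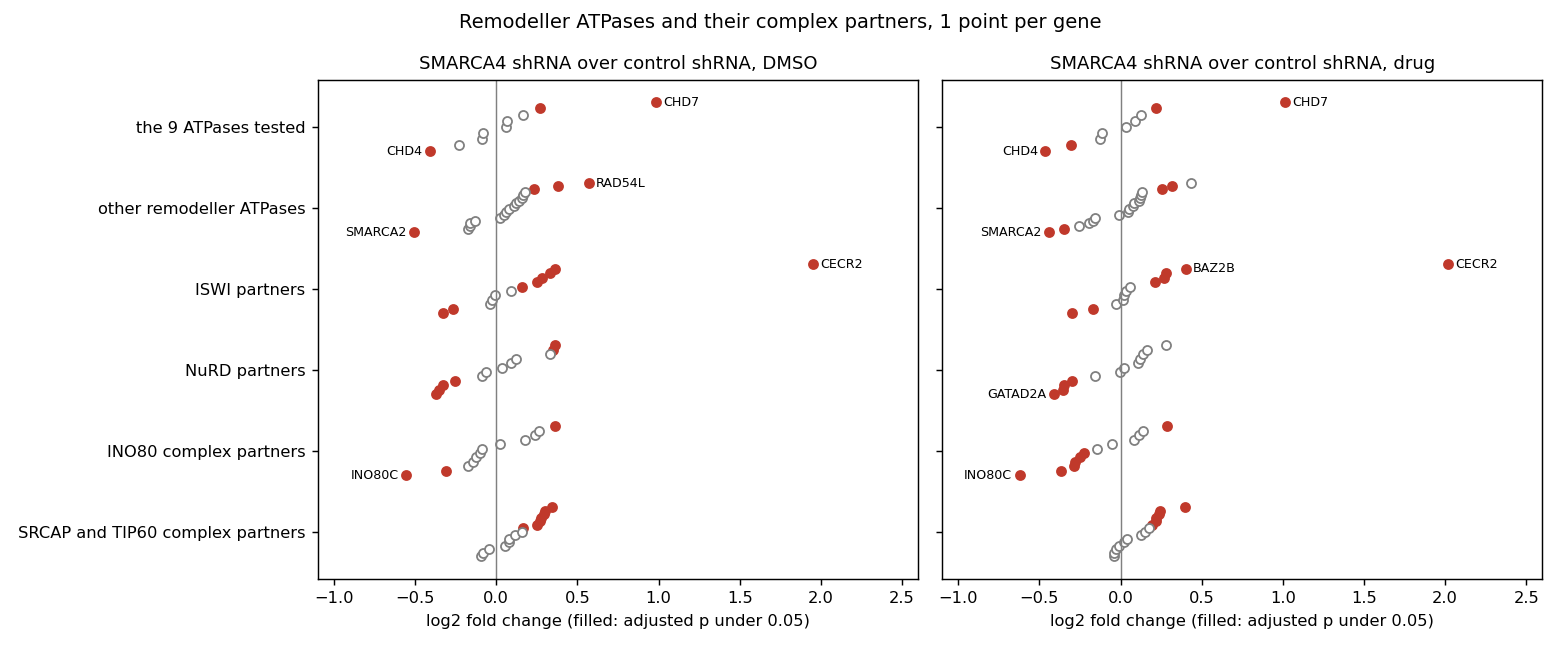
Log2 fold change (horizontal axis) with SMARCA4 knockdown of each tested ATPase and complex partner, 1 point per gene, in DMSO (left) and under drug (right); filled points have adjusted p under 0.05, and called genes past 0.4 in either direction are named. CECR2, at 1.95 and 2.02, lies farthest from 0, followed by CHD7 at 0.98 and 1.01.

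The genes most like CHD7 across the 12 libraries were CNR1, NETO2 and ARPP21, with Pearson correlations of log2 CPM of 0.996, 0.994 and 0.994 among the 8171 genes whose log2 CPM averaged 3 or more. These libraries fall into knockdown and control groups, and 509 genes had a correlation above 0.9, so the likeness is a description with no test. Their changes differed in size. CNR1, the cannabinoid receptor gene, rose by 3.20 in DMSO and 3.19 under drug, ARPP21 by 2.23 and 2.26, and NETO2, an accessory subunit of kainate receptors, by 1.04 and 1.12, where CHD7 rose by 0.98 and 1.01.

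The drug itself changed none of the 9 ATPase genes past the threshold in either background. In knockdown cells 0 of 9 were called by edgeR's quasi-likelihood test, against 1.29% of all genes. There 2 of 9 had an unadjusted p under 0.05, against 10.4% of all genes. In control cells 0 of 9 were called, against 1.29% of all genes. An unadjusted p under 0.05 was seen there for 0 of 9, against 10.0% of all genes. The count of calls was also 0 in both backgrounds by DESeq2 and by limma-voom. CHD2 came nearest, with a log2 fold change of 0.19 (95% interval 0.08 to 0.31, adjusted p = 0.0895) in knockdown cells and 0.04 (-0.08 to 0.15, adjusted p = 0.898) in control cells. With library totals as scaling it passed in knockdown cells (0.23, adjusted p = 0.0290). CHD4 had -0.13 (interval -0.23 to -0.03, adjusted p = 0.266) in knockdown cells and -0.08 (-0.18 to 0.02, adjusted p = 0.665) in control cells. CHD7 had 0.099 (-0.02 to 0.22) and 0.07 (-0.07 to 0.21). SMARCA1, not tested, held 21 counts in SMARCA4kd_IbrVen and 41 in SMARCA4kd_DMSO libraries, a scaled ratio of 0.835 (95% exact interval 0.468 to 1.45).

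**Figure D5:**
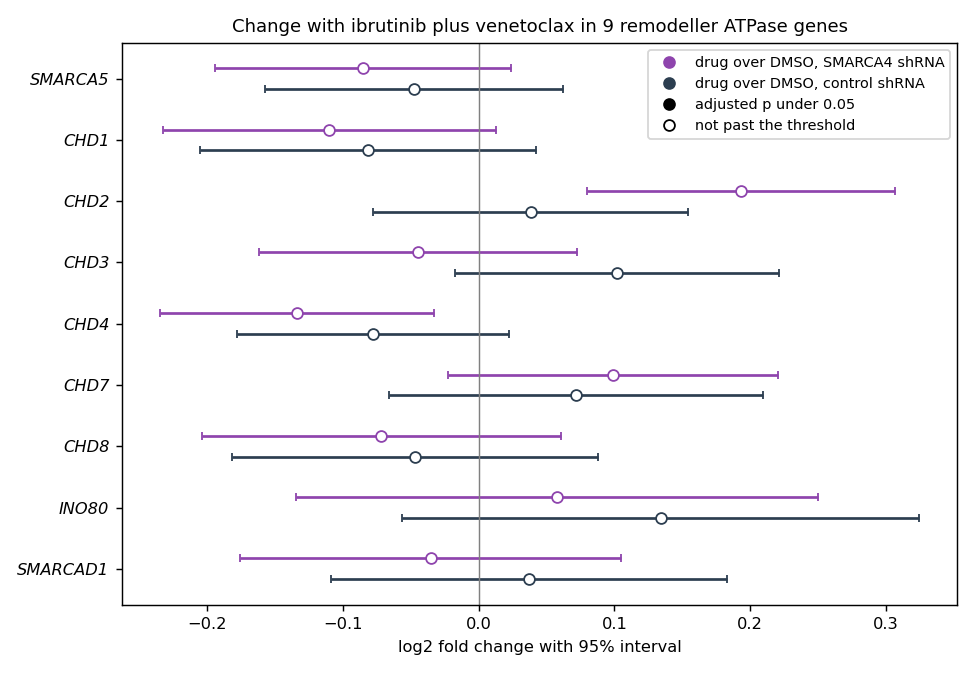
Log2 fold change (horizontal axis) of drug over DMSO with its 95% interval for the 9 ATPase genes tested, in SMARCA4 knockdown cells (purple) and control cells (dark blue); open points did not pass the threshold. All 18 values lie between -0.13 and 0.19.

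The interaction asks whether the drug effect differs with the knockdown (knockdown cells minus control cells). It passed for 0 of 9 ATPase genes, against 0.0238% of all genes. An unadjusted p under 0.05 was seen for 0 of 9, against 5.35% of all genes. DESeq2 and limma-voom also called 0 of 9. The 9 values ran from -0.15 for CHD3 to 0.16 for CHD2, and their 95% intervals reached from -0.35 to 0.32, so differences of that size are not excluded by these libraries. For CHD7 the interaction was 0.03 (interval -0.16 to 0.21) and for CHD4 -0.06 (-0.20 to 0.09).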

How the data were processed

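RNA from 12 Z-138 libraries in 4 groups of 3 was measured. Per the labels, Qiagen RNeasy extracts were made into Lexogen QuantSeq libraries, which read 3' ends, so counts are not divided by gene length and levels of different genes are not compared. The build hg19 and the tools HISAT2, HTSeq and bcl2fastq 2.17.1.14 come from the submitters' processing notes. Not given in the sources used here are the HISAT2 and HTSeq versions, annotation, strand setting and any row filter. Gene counts for 13820 genes were deposited by the authors raw, with no normalization.

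Column names gave each column's sample. In 1 column the name gives the shRNA (control) and a replicate number of 1, without a treatment. Every other sample had its own column, so it was taken by elimination as control_IbrVen replicate 1, and results without it are among the alternatives. No 2 libraries of a group agreed within sampling noise (chi-square per degree of freedom 1.85 to 4.75). Whether replicates came from separate cultures is not stated in the labels. The p-values therefore measure only the spread between these libraries, which may be technical.

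The filterByExpr filter over the 4 groups, with a minimum count of 10 and a minimum total of 15, kept 12602 genes, and library sizes were adjusted with TMM factors. All libraries entered 1 quasi-likelihood model in edgeR 4.0.16 (R 4.3.3) with 1 coefficient per group, checked on simulated data. The two-sided F tests received Benjamini-Hochberg adjustment across the 12602 genes. The threshold was 0.05, and "rose" and "fell" are used past it. Each SE was computed as the absolute log2 fold change over the root of F, and 95% intervals use the moderated degrees of freedom, so both are approximate. Log2 CPM used a prior count of 2. Overlaps with other genes were read from GENCODE release 29, by name. SMARCA5, CHD4 and INO80 overlap antisense genes there, and without a known strand setting the reads of such a pair cannot be told apart. CHD4 and CHD2 each also overlap a protein-coding gene on their own strand, which has no row in the counts. A strand setting would not separate those reads.

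The 10 ATPases, the partner and marker lists, and the rule for naming genes were chosen with earlier results of these data known. The rule takes the 10 ATPases, SMARCA4, SMARCA2, up to 3 genes per partner list with the smallest adjusted p over the knockdown comparisons, and the 3 genes most correlated with the leading ATPase. It also takes every listed gene past the threshold for the drug. These were the B cell markers MS4A1 in control cells (0.31, adjusted p = 0.00068) and PAX5 in knockdown cells (0.32, adjusted p = 0.0031). MTA1, MTA3, HDAC2, INO80B, RUVBL2 and ACTL6A, and the genes named under other observations, were chosen after their values were seen. Alternatives were RLE factors, library totals, no filter, a stricter filter (5 CPM in at least 3 libraries), Wald tests in DESeq2 1.42.0, limma-voom in limma 3.58.1, fits without the other 2 groups, a block for the replicate number, removal of 5 ribosomal RNA rows, and dropping each library in turn. After seeing the data, a fit with the deepest library thinned to the median depth of the rest was added.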

Additional observations from a re-analysis of the deposited data

How the results depend on the processing

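Recomputing the 49 tested values of the ATPases, SMARCA4 and SMARCA2 gave 829 alternative values, of which 797 kept their direction and side of the threshold, 4 lost a call (all INO80 under drug), 7 gained one and 21 changed sign. CHD7, CHD4 and SMARCA2 kept both knockdown calls, CHD3 its call in DMSO and CHD2 its call under drug in all 16 alternatives each. The values that changed sign were all uncalled, and the cause was not tested beyond what each alternative leaves out. With library totals they were, for the interaction, SMARCA5 (0.0234), CHD1 (0.0322), CHD4 (0.0048) and CHD8 (0.0359), and for the drug in knockdown cells SMARCAD1 (0.0019). Leaving out single libraries gave ranges across 0 for the interaction of CHD7 (-0.0072 to 0.0924), CHD1 (-0.068 to 0.012), INO80 (-0.163 to 0.0084) and CHD8 (-0.0917 to 0.0276). It did so for the drug in control cells for SMARCAD1 (-0.0028 to 0.105), CHD8 (-0.101 to 0.0143) and CHD2 (-0.0205 to 0.0899), for the drug in knockdown cells for SMARCAD1 (-0.0774 to 0.0273) and INO80 (-0.0269 to 0.121), and for knockdown under drug for CHD8 (-0.0328 to 0.0753). Of the 9 ATPases tested, the count called in DMSO was 3 and became 5 with the 2 groups alone, and the count for the drug in knockdown cells was 0 and became 1 with library totals. Without single libraries the counts over these 9 genes ran from 3 to 4 both for knockdown in DMSO and for knockdown under drug and stayed at 0 for the drug and the interaction. SMARCA1 entered some of these fits because the filter then required fewer libraries, and the libraries that met it were knockdown libraries, so those fits are no check of its change. Counts over all genes without single libraries ran from 3218 to 3528 and from 3312 to 3548 for knockdown in DMSO and under drug, from 100 to 164 for the drug in knockdown cells and 106 to 160 in control cells, and from 1 to 3 for the interaction. The lowest drug counts came without SMARCA4kd_DMSO replicate 3 (100) and SMARCA4kd_IbrVen replicate 1 (102) in knockdown cells and without control_IbrVen replicate 1 (106) in control cells. The interaction count of 3 became 1 with the filter at 5 CPM and 0 without ribosomal RNA rows. With library totals 65.0% of genes called for knockdown under drug were higher, against 47.5% with scaling factors, and for the drug 71.4% against 57.4% in knockdown cells and 46.5% against 57.1% in control cells. The replicate number as a block gave 3822 genes for knockdown in DMSO, 3827 under drug, 147 for the drug in knockdown cells and 150 in control cells and 2 for the interaction. It changed no call of an ATPase, and same-numbered libraries deviated together at correlations of -0.116 to 0.0821, so the numbers are not shown to pair the libraries. Without control_IbrVen replicate 1, the column assigned by elimination, no call of the 9 tested ATPases changed. SMARCA1 is limited by depth, at 0 to 15 counts per library.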

Other observations

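Several partner genes outside the naming rule also changed with the knockdown, and they are given here as values, chosen after they were seen. INO80C, a small subunit of the INO80 complex, fell by 0.56 on the log2 scale in DMSO (adjusted p = 0.0059) and by 0.62 under drug (adjusted p = 0.0054). MTA1, a NuRD scaffold subunit, rose by 0.36 in DMSO (adjusted p = 0.00023) and had 0.16 under drug (adjusted p = 0.110). SRCAP, the motor of its own complex, fell by 0.35 under drug (adjusted p = 0.0013) and had -0.16 in DMSO (adjusted p = 0.119). RAD54L, a SWI/SNF-related ATPase of homologous recombination, rose by 0.57 in DMSO (adjusted p = 0.0080) and had -0.0076 under drug (adjusted p = 0.980). The interaction did not pass for MTA1 (-0.20, adjusted p = 0.922), SRCAP (-0.19, adjusted p = 0.949) or RAD54L (-0.58, adjusted p = 0.914). RSF1 and BAZ1A, which encode partners of SMARCA5, rose by 0.28 and 0.25 in DMSO and by 0.28 and 0.27 under drug, where SMARCA5 itself was not called.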
